A study of Mus musculus with 5 samples.

Results

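Heat shock and endoplasmic reticulum (ER) chaperone genes were examined for RNA bound by PABPC1 and by CCT3 in samples labelled as mouse GC-2spd(ts) cells. The genes numbered 10 of 21900 annotated protein-coding genes and were chosen by name, as 4 chaperones of the ER (Hspa5, Hsp90b1, Dnajb11 and Dnajc3), 5 of the cytosol (Hspa8, Hsp90aa1, Hsp90ab1, Dnajb1 and Hsph1) and 1 of mitochondria (Hspd1). GC-2spd(ts) is an established line, labelled as spermatocyte cells. The study used eCLIP, which sequences RNA crosslinked to an immunoprecipitated protein beside an input library. Of 5 samples, 1 was a PABPC1 immunoprecipitation, 1 its input, 2 were CCT3 immunoprecipitations and 1 the CCT3 input. The labels name no treatment and no genetic change for any of the samples. Each protein had 1 library name, since the CCT3 samples (lists CCT3 and CCT3-2) carry the same one, so no difference between proteins or genes has a replicate check.

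PABPC1 is the cytoplasmic poly(A)-binding protein, which coats the poly(A) tail of mRNAs. CCT3 is a subunit of the TRiC/CCT chaperonin, a folding machine of the cytosol. Chaperones bind unfolded proteins and are made in larger amounts under stress: ER chaperones through the unfolded protein response, and cytosolic ones through heat shock factors. Hsp70-type chaperones cycle on and off their clients with the help of J-domain co-chaperones and nucleotide exchange factors, whereas Hsp90-type chaperones act on clients that are already partly folded.

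The elements through which these stress responses act were looked for in RefSeq promoter windows (GRCm38.p6, the build also called mm10), which run from 250 bases before to 50 after a gene's start. A window was matched for 7 of the 10 genes, and Hspa8, Hsp90aa1 and Hsp90ab1 were not matched. The sequences are shown because each element was found in only one of the groups, although Dnajb11 and Dnajb1 had neither element. Both elements were picked for their tie to these responses, as were the groups of genes, so the matches are a description and not a test. Capitals mark, in the first 3 lines, the ER stress element, searched as CCAAT and CCACG with 9 bases of any kind between them. In the last 2 they mark the heat shock element, searched as GAA, TTC and GAA with 2 bases of any kind between neighbours. Both strands were searched. The lines read along the gene's strand at chr2:34772019-34772049 (plus strand), chr10:86705527-86705662 (minus), chr14:118937821-118937851 (plus), chr1:55088053-55088082 (minus) and chr5:149636282-149636306 (minus).
Hspa5: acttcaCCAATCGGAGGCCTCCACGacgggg
Hsp90b1: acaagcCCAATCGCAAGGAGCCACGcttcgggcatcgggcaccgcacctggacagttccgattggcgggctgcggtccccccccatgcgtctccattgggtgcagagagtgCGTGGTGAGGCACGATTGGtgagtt
Dnajc3: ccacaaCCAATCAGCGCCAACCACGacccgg
Hspd1: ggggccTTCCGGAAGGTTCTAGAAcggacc
Hsph1: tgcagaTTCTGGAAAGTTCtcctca
The ER stress element was present in 3 of 4 ER genes and in 0 of the 3 other genes with a window, against 0.137% of all 27025 genes with a window. In the wider chaperone lists described below it was present in 4 of 17 ER chaperones and folding enzymes (Calr, Canx, Creld2 and Pdia6), in 1 of 12 unfolded protein response genes (Syvn1) and in 0 genes of the other lists. Hsp90b1 had 2 matches, one on each strand, and Dnajb11 had none. The heat shock element was present in Hspd1 and Hsph1, with 2 overlapping matches in Hspd1, in none of the 4 ER genes and in 0.662% of all genes with a window. In the wider lists it was present in Dnajb6 (1 of 18 genes of the cytosolic Hsp70 machinery), Chordc1 (1 of 9 Hsp90 co-chaperones) and Hspe1 (1 of 8 mitochondrial genes), and in 0 genes of the other lists. Of the 7 genes, 0 had a peak of any list in these windows. Most of each window lies before the gene's start, where few RNA peaks could fall, so this count says little. A match describes letters and is not a measured site, and the peaks below lie elsewhere in the genes.

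The ER genes carried more PABPC1 peaks, with higher folds, than the cytosolic and mitochondrial genes. The PABPC1 list named a chaperone of the 10 for 45 of its 14092 peaks, 38 of them in 3 ER genes and 7 in 4 other genes. In all, 7 of the 10 genes were named, against 22.5% of protein-coding genes. The fold of a peak is the authors' log2 ratio, taken as immunoprecipitation over input, and in all listed PABPC1 and CCT3 peaks both this fold and the −log10 p were at least 3. Both are the authors' values for each peak. The columns are named in the CCT3 list, and the unnamed columns of the PABPC1 and CCT3-2 lists were read by their order and range. Read depth is unknown, and the lack of a peak does not show a lack of binding. Expression was not measured, and the comparison with protein-coding genes includes genes that may not be expressed.

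The gene name listed for a peak is not always the gene that holds it. Dnajc3, which encodes an ER J-domain co-chaperone, was named for 0 peaks, yet 9 PABPC1 peaks lay in its span (chromosome 14, 118937932 to 118981702, plus strand). All 9 were on its strand, annotated as 3′ UTR and listed under the neighbouring gene Uggt2. With peaks assigned by position in RefSeq gene spans, the ER genes had 47 peaks in 4 of 4 genes, and 8 of the 10 genes had a peak, against 25.8% of protein-coding genes. The other 9 genes had the same peaks by name and by position.

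**Figure D1:**
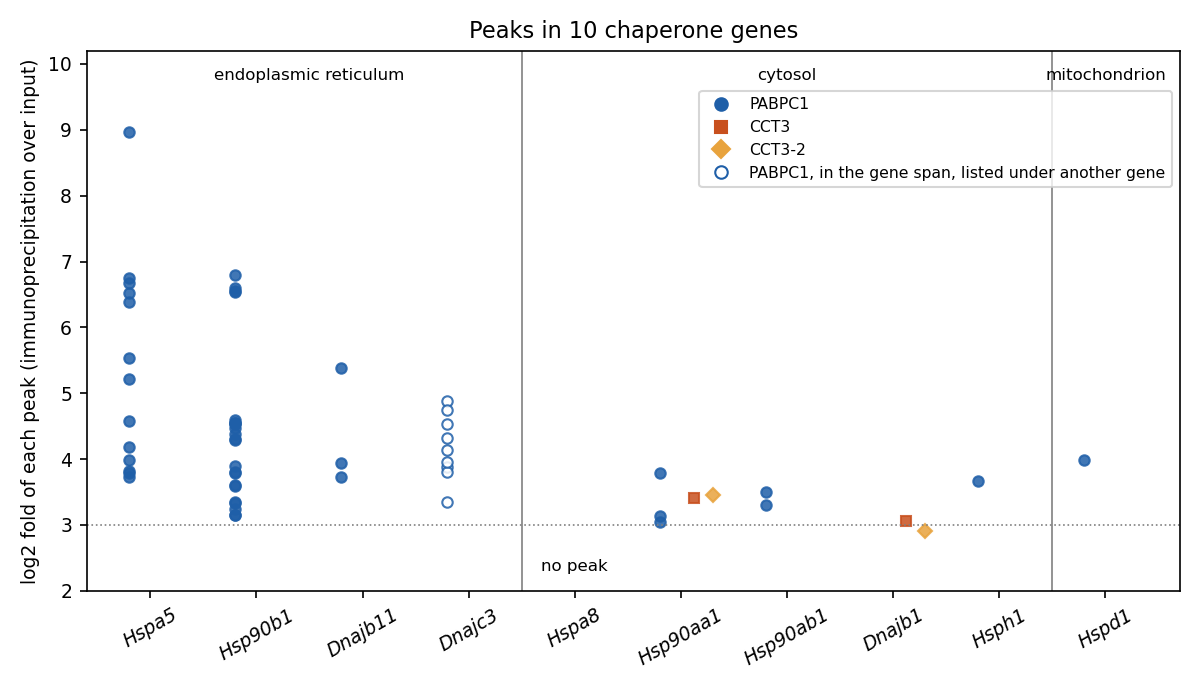
The log2 fold of every peak (vertical axis) is plotted for each of the 10 chaperone genes, with PABPC1 as circles, CCT3 as squares and CCT3-2 as diamonds, open circles for the Dnajc3 peaks listed under Uggt2, and a dotted line at a log2 fold of 3. The highest PABPC1 peak of each of the 4 ER genes, at 4.88 to 8.97, lies above every peak of the cytosolic and mitochondrial genes, which reach 3.98.

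Hspa5 encodes BiP, the Hsp70 of the ER, and had the highest fold among the 10 genes. Its 13 PABPC1 peaks had log2 folds from 3.73 to 8.97, with a median of 5.22. The highest lay at 34776484 to 34776511 on chromosome 2, with its midpoint 31.5 bases from the 3′ end of the gene (34772090 to 34776529, plus strand), and a −log10 p of 93.1. By its highest fold Hspa5 ranked 19 among the 5289 genes named in the list. A run of 4 abutting peaks from 34776321 to 34776357 had folds of 6.38, 6.75, 6.67 and 6.53. Folds were lower on both sides of this run, at 5.54 upstream and at 5.22 and 4.58 downstream, before the last peak at 8.97. The 2 peaks annotated to exon 9 had folds of 3.82 and 3.73. The span of Rabepk overlaps this region, and all 13 peaks were on the strand of Hspa5.

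Hsp90b1 encodes GRP94, the Hsp90 of the ER, and had 22 PABPC1 peaks, which ranked it 3 among the named genes. Its log2 folds ran from 3.16 to 6.79, with a median of 4.30. The 4 peaks above 6 (6.79, 6.55, 6.60 and 6.54) were 4 to 9 bases wide and lay together at 86690917 to 86690947 on chromosome 10, 77.5 to 102.5 bases from the 3′ end (gene span 86690841 to 86705444, minus strand). In Hsp90b1, 8 peaks were annotated as 3′ UTR and 14 as other exons, and no other gene of the list had more peaks in other exons. The 8 in the 3′ UTR had a median fold of 5.57 and a range from 3.80 upward, whereas the 14 in exons had a median of 3.70 and reached 4.55. The farthest peak lay 3100.5 bases from the 3′ end along the genome, introns included, in exon 9, at a fold of 3.16. The deposited annotation assigned 2 of the exonic peaks to a transcript of another gene ID, although both lie inside the Hsp90b1 span and on its strand.

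**Figure D2:**
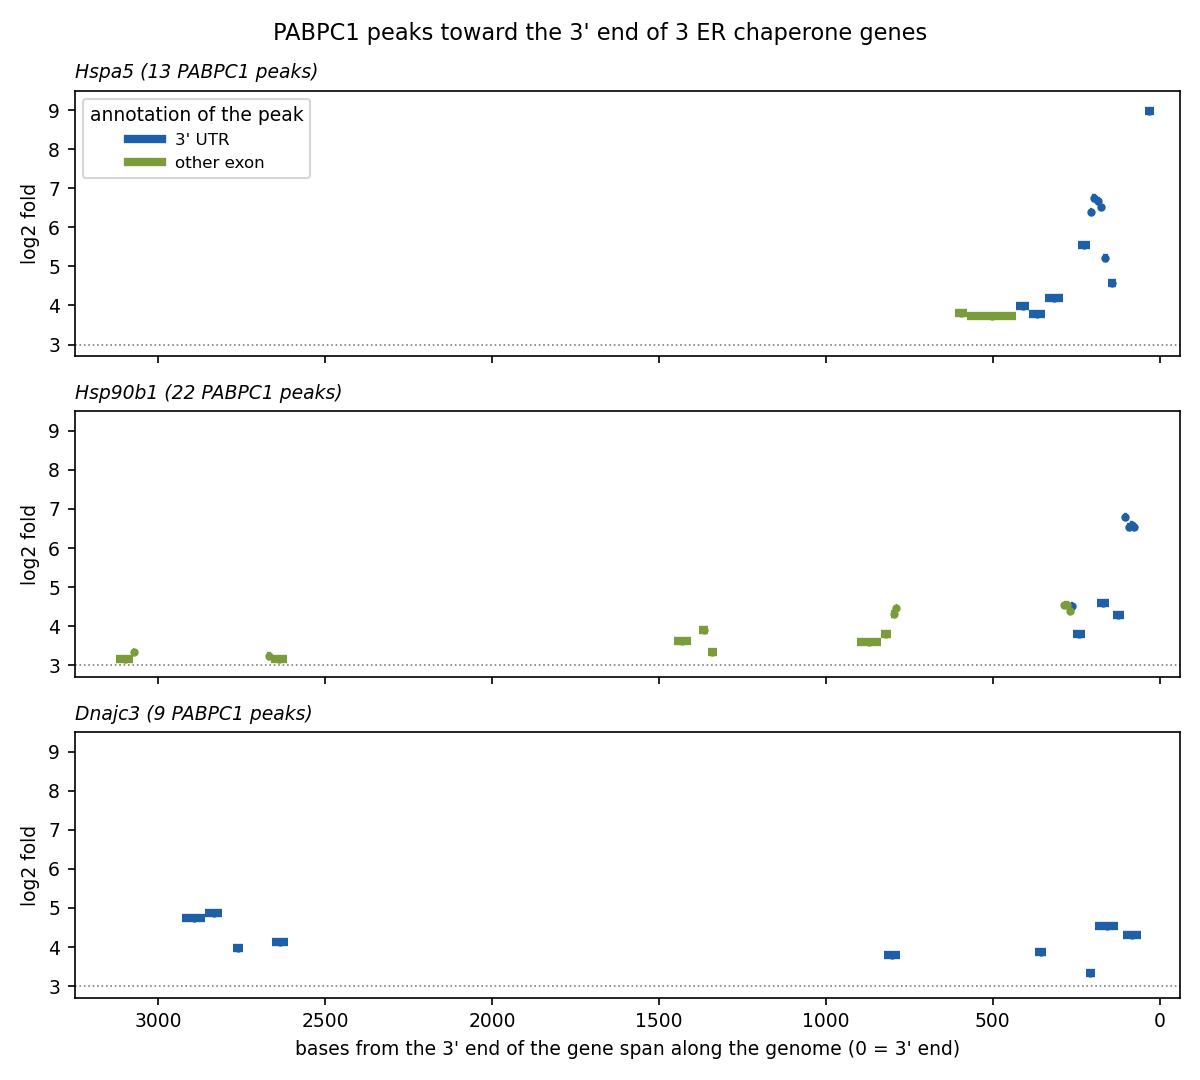
Each bar is a PABPC1 peak drawn at its width, with its log2 fold (vertical axis) against the distance from the 3′ end of the gene span in bases (horizontal axis, 3′ end at right), for Hspa5, Hsp90b1 and Dnajc3, coloured by the annotation of the peak. Folds above 5 lie within 226.5 bases of the end in Hspa5 and within 102.5 bases in Hsp90b1, while the 9 Dnajc3 peaks stay between 3.35 and 4.88 along the plotted stretch.

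In Hspa5 and Hsp90b1 the peaks nearer the 3′ end had the higher folds. The Spearman correlation of the log2 fold with the distance from the 3′ end was -0.75 over the 13 Hspa5 peaks and -0.89 over the 22 Hsp90b1 peaks, given as a description since neighbouring peaks share a library and often reads. In Dnajc3 it was 0.37 over 9 peaks. These 9 fell in a group of 4 between 2635.5 and 2893 bases from the end, with folds of 3.96 to 4.88, and a set of 5 within 802.5 bases, with folds of 3.35 to 4.54. The highest Dnajc3 peak thus lay far from the end, at 118978844 to 118978892. The correlation was computed for these genes only. In Dnajb11 the peak of highest fold was the nearest to the 3′ end, and in Hsp90aa1 and Hsp90ab1 it was the farthest.

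Dnajb11, whose product is an ER J-domain co-chaperone of BiP, had 3 PABPC1 peaks, all in the 3′ UTR. Their log2 folds were 3.94, 3.73 and 5.38 in the direction of transcription. The last, at 22872282 to 22872320 on chromosome 16, had its midpoint 5 bases from the end of the listed transcript. The RefSeq span of Dnajb11 (22857845 to 22879634, plus strand) runs on well past that end, so distances to the span's end overstate the distance to this transcript's end.

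Many of these peaks are pieces of 1 bound stretch, so a count of peaks depends on how the stretch was divided. In Hspa5, 9 peaks were followed directly by the next, and in Hsp90b1 13 were. Merging peaks within 10 bases left 3 blocks in Hspa5, 7 in Hsp90b1, 3 in Dnajb11 and 7 in Dnajc3. For the named peaks, merging turned 38 into 13 in the ER genes and 7 into 6 in the others.

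The cytosolic Hsp90 genes had PABPC1 peaks of low fold and of very small p. Hsp90ab1, the constitutive cytosolic Hsp90, had 2 abutting peaks in its 3′ UTR (45567930 to 45568010, chromosome 17, minus strand). They lay 164 and 204.5 bases from the 3′ end, with log2 folds of 3.31 and 3.50. Both had a −log10 p of 400, the value at which the list stops, although 88.2% of named genes had a higher highest fold. Hsp90aa1, the stress-inducible cytosolic Hsp90, had 3 peaks, 285, 1584 and 3108.5 bases from the 3′ end along the genome. Their folds were 3.05, 3.14 and 3.79, with −log10 p of 37.7, 28.1 and 400. The order of genes by fold and by p was therefore not the same. Over the 45 named peaks, 22 reached a −log10 p of 400 (48.9%), among them 12 in Hsp90b1 and 7 in Hspa5, against 4.80% of the whole list. Many of these peaks abut each other, so this share depends on how bound stretches were divided. Hsp90aa1 and Hsp90ab1 are similar in sequence, and the sources used here do not say how reads that fit both were treated.

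The remaining cytosolic and mitochondrial genes had 1 PABPC1 peak or none. Hspd1, the Hsp60 of mitochondria, had 1 in its 3′ UTR at a log2 fold of 3.98, and 73.4% of named genes had a higher highest fold. RefSeq names 5 Hspd1 pseudogenes, whose reads may be hard to tell apart from those of Hspd1. Hsph1, an Hsp110-type exchange factor of the cytosol, had 1 peak at 3.67 whose midpoint lay 55 bases from the 3′ end. Its −log10 p of 3.03 was the lowest of the 45. Hspa8, the constitutive cytosolic Hsp70, and Dnajb1, a cytosolic J-domain co-chaperone, had no PABPC1 peak by name or by position.

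The median over genes of the highest PABPC1 log2 fold was 6.79 for the 3 named ER genes, 6.09 for all 4 by position, and 3.73 for the 4 other genes with a peak. Over all named genes it was 4.69. The ER genes ran from 4.88 to 8.97 and the others with a peak from 3.50 to 3.98, so the groups did not overlap by this measure. A highest fold can rise with the number of peaks. By each gene's median fold the groups did overlap, with Dnajb11 at 3.94 and Hspd1, with 1 peak, at 3.98. High values of the highest fold were not rare, as 37.6% of protein-coding genes with a peak in their span had one over 5. Of named genes, 0.340% had a higher highest fold than Hspa5, 5.26% than Hsp90b1 and 26.3% than Dnajb11. Dnajc3, at 4.88, lay near the 4.69 of all named genes. With thresholds of 4 for the log2 fold and 5 for −log10 p, peaks remained in Hspa5 (9), Hsp90b1 (12), Dnajb11 (1) and, by position, Dnajc3 (4), and in 0 of the 6 other genes. At that threshold 13.8% of protein-coding genes were named. These are descriptions of 1 library set and were not tested, since genes are not replicates.

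By annotation, 60% of the 45 named PABPC1 peaks lay in 3′ UTRs (Wilson 95% interval 45.5 to 73.0%), against 79.9% of the whole list. The 14 exonic Hsp90b1 peaks and the 2 of Hspa5 made up all 16 peaks annotated to other exons. In Hsp90aa1, 2 peaks were annotated as promoter, although they lay 3775 and 2250.5 bases from the 5′ end of the gene. Without Hsp90b1, which was left out after seeing the data, the 3′ UTR share was 82.6%. The share was 57.9% in the ER genes (42.2 to 72.1%) and 71.4% in the others (35.9 to 91.8%), and these intervals overlap. Outside the promoter class it was 57.9% in the ER genes and 100% in the others, where 5 peaks remained. The intervals cover counting error only, and neighbouring peaks are not independent. The median distance to the 3′ end along the genome was 286 bases for the named peaks. It was 669 bases for the 9621 PABPC1 peaks that lie in the span of their named gene. Both count introns, so distances along the mRNA may be shorter. All PABPC1 peaks in the spans of the 10 genes were on the strand of their gene.

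CCT3 peaks were found in 2 of the 10 genes, both cytosolic, against 9.15% of protein-coding genes for the CCT3 list and 12.0% for CCT3-2. None of the 4 ER genes had a peak in either list, by name or by position. In Hsp90aa1 the CCT3 peak lay at 110694118 to 110694220 on chromosome 12, in exon 5 of 11. Its log2 fold was 3.41, at a −log10 p of 13.0. The CCT3-2 peak lay at 110694108 to 110694224 with 3.45 and 16.6. In Dnajb1 the peaks were at 83610132 to 83610185 on chromosome 8, in exon 2 of 3, with a log2 fold of 3.05, and at 83610135 to 83610191 with 2.91 in CCT3-2. These were low folds within their list, as 87.4% of the genes named in the CCT3 list had a higher highest fold than Hsp90aa1 and 98.7% than Dnajb1. Neither gene had a CCT3 peak at a log2 fold of 4.

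PABPC1 and CCT3 peaks met at 1 place among the 10 genes, in exon 5 of Hsp90aa1. The PABPC1 peak there, at 110694085 to 110694204, shared 87 bases with the CCT3 peak, which was 72.5% of the PABPC1 peak and 84.5% of the CCT3 peak. With CCT3-2 it shared 97 bases. The deposited annotation calls this PABPC1 peak and the CCT3-2 peak promoter and the CCT3 peak exon, although they overlap each other and the PABPC1 peak lies 2250.5 bases from the 5′ end of the gene. It was the PABPC1 peak of highest fold in Hsp90aa1, at 3.79. Over all genes 73 of 10916 CCT3 peaks (0.669%) overlapped a PABPC1 peak. The strand of peaks in the CCT3 list is unknown, so overlaps were taken regardless of strand.

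**Figure D3:**
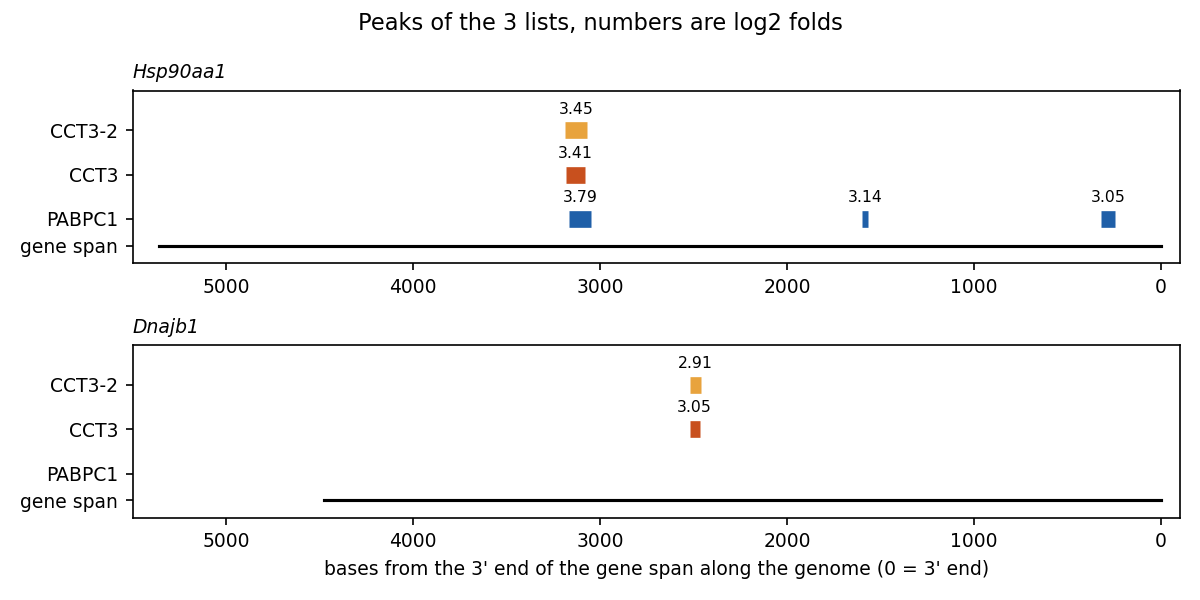
Peaks of the 3 lists are drawn as bars at their width, with their log2 folds as numbers, along Hsp90aa1 and Dnajb1, against the distance from the 3′ end of the gene span in bases (the black line is the gene span). In Hsp90aa1 the bars of all 3 lists lie over each other about 3130 bases from the 3′ end, and in Dnajb1 the CCT3 and CCT3-2 bars lie over each other about 2490 bases from it.

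The wider chaperone network was described with 6 lists of 87 genes that did not include the 10, using position, since 20 of the 87 had PABPC1 peaks in their span but none by name, and 5 had peaks by name but none in their span. By position 62 of the 87 had a PABPC1 peak (71.3%, 61.0 to 79.7%), against 25.8% of protein-coding genes, and in 4 of these all peaks were on the opposite strand. The ER lists reached 26 of 36 genes and the other lists 36 of 51, at 72.2% and 70.6%. The median highest log2 fold was 5.02 in the ER lists and 4.34 in the others, with 4.69 over all protein-coding genes with a peak. The median number of peaks was 4, 2 and 2 in the same order. The gap between ER and other chaperones seen among the 10 genes was thus smaller in the wider lists for fold, and the shares of genes with a peak were close.

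Among 21 ER chaperones and folding enzymes, 17 had a PABPC1 peak. Pdia3, a protein disulfide isomerase, had 11 peaks up to 7.17, all named for another gene, and Pdia6, another of this family, had 10 up to 6.86. Dnajc10, an ER J-domain reductase, reached 6.16 with 5 peaks. Canx, the lectin chaperone calnexin, had 19 peaks, 14 of them in 3′ UTRs, and the next highest fold of the list. Of these, 6 were named for another gene, and by name Canx had 13 peaks up to 5.03. Of 15 sensors and factors of the unfolded protein response 9 had a peak, led by Ddit3 at 5.51, Sel1l at 5.46, Derl2 at 5.17 and Atf4 at 4.97. The Ddit3 peak and the highest Derl2 peak were named for another gene. Xbp1 was named for 9 peaks, of which none lay in its span.

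Of 19 genes of the cytosolic Hsp70 machinery 15 had a PABPC1 peak, led by the J-domain gene Dnajb6 at 8.03, the testis Hsp70 gene Hspa2 at 6.62 with 13 peaks, Dnaja1 at 5.65 and the Hsp110-type gene Hspa4 at 5.43. Hsp90 co-chaperones had one in 8 of 10 genes. Stip1, which links Hsp70 to Hsp90, had 10 peaks up to 5.25, followed by Stub1 at 5.12, Ptges3 at 4.93 and Ppid at 4.07. Small heat shock proteins and heat shock factors had one in 5 of 10 genes, led by Hsf5 at 4.52, Hsbp1 at 4.05, Hsf2 at 3.98 and Hspb6 at 3.88. Hsf2 was also named for 8 peaks outside its span. Mitochondrial chaperones and proteases had one in 8 of 12 genes, led by the protease subunit gene Clpx at 6.63, Clpb at 5.74, Grpel1 at 5.36 and Afg3l2 at 5.07. The Grpel1 and Afg3l2 peaks were on the opposite strand. Hspa9, the Hsp70 of mitochondria, was at 3.90. All PABPC1 peaks in the spans of Stip1, Stub1, Hsf5, Hspb6, Clpx and Afg3l2 were named for another gene, as was the highest of Ptges3.

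**Figure D4:**
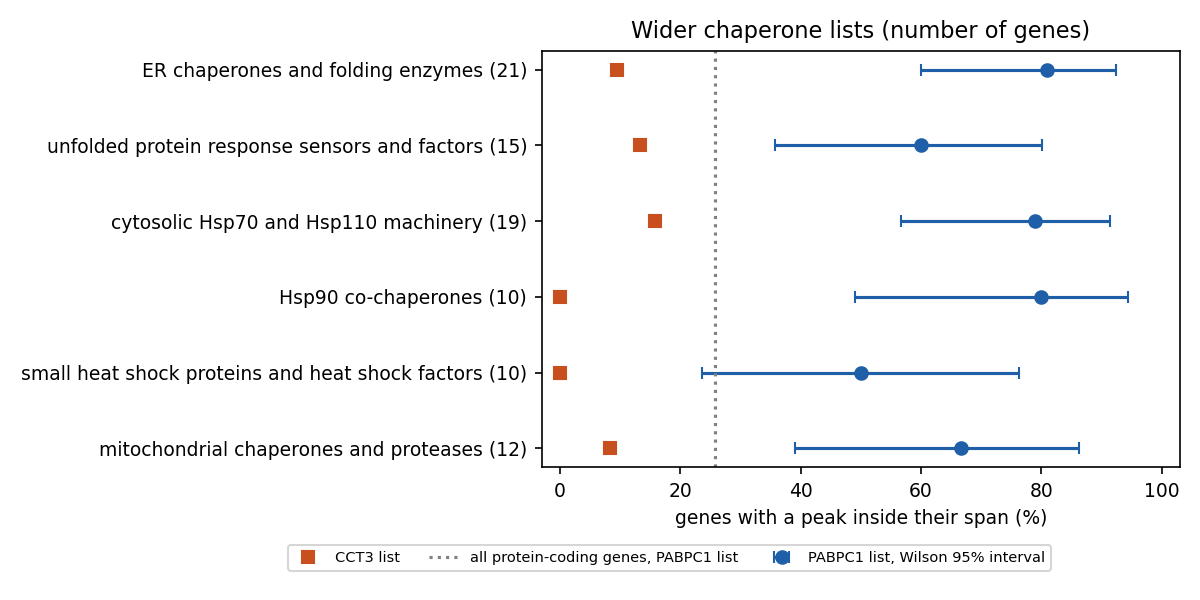
The share of genes with a peak inside their span (horizontal axis, %) is plotted for each wider list, with PABPC1 as circles with Wilson 95% intervals, CCT3 as squares and the PABPC1 share of all protein-coding genes, 25.8%, as a dotted line. PABPC1 shares run from 50.0% for small heat shock proteins and heat shock factors to 81.0% for ER chaperones and folding enzymes, and the intervals of all 6 lists overlap.

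CCT3 peaks lay in the span of 8 of the 87 wider genes, against 9.59% of protein-coding genes. As their strand is unknown, they may lie on either strand. Hspa14, an Hsp70-type gene that acts with the ribosome, had 14 CCT3 peaks up to a log2 fold of 6.64 and 22 in CCT3-2, and 1 PABPC1 peak at 3.41. Dnajb4, a cytosolic J-domain gene related to Dnajb1, had 6 CCT3 peaks up to 4.89. Hspa1l had 4 up to 4.88, and 0 of the 6 CCT3-2 peaks there were on its strand. In the ER lists, Dnajc1 had 2 up to 4.96 and Calr 1 at 3.54. For the unfolded protein response, Ppp1r15a had 1 at 3.82 and Ern1 1 at 3.50, and among mitochondrial genes Grpel1 had 1 at 4.26. The CCT3 list named Ppib for 8 peaks, none of which lay in its span.

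By number and height of PABPC1 peaks, share in 3′ UTRs and number of CCT3 peaks, the named genes nearest to Hsp90b1 were Rnf138, with 17 peaks up to 7.19, Hnrnpa2b1, with 23 up to 6.18, and Rimbp2, with 18 up to 6.49. The distance covers these 4 measures only. Their peaks in 3′ UTRs numbered 12, 0 and 18 in the same order, against 8 in Hsp90b1. Peaks in other exons, which the distance left out, numbered 2, 1 and 0, against 14 in Hsp90b1.

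Marker genes were looked up by position to set the cell label beside these lists. PABPC1 peaks lay in 9 of 10 spermatocyte markers, 8 of them with a peak on their own strand (the Spo11 peaks were on the opposite one). They also lay in 5 of 5 spermatid, 4 of 5 Sertoli cell, 3 of 5 Leydig cell and 5 of 5 fibroblast markers. The share over all protein-coding genes was 25.8%. CCT3 peaks lay in 1 gene of all these lists, the Sertoli cell marker Sox9, against 9.59% of protein-coding genes. Among markers with a PABPC1 peak, the median highest log2 fold was 6.52 for spermatocyte and 5.06 for spermatid markers. It was 5.30, 5.57 and 6.07 for Sertoli cell, Leydig cell and fibroblast markers. The spermatocyte gene Sycp3 reached 8.10, the spermatid gene Prm1 reached 8.43, and the Leydig cell gene Insl3 had 22 peaks up to 7.71. PABPC1 peaks were thus in markers of every cell type looked up, so these markers do not single out the labelled spermatocyte cells. The cell source is known from the labels only, and the part of other cell types in the chaperone results was not tested.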

How the data were processed

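By the labels, eCLIP was made from GC-2spd(ts) cells for PABPC1 and CCT3, each with an input. The authors deposited 3 annotated peak lists (14092, 10916 and 18650 peaks), with coordinates in mm10, per the submitters' processing notes, which also name bcl2fastq 2.20. The authors' values for each peak are a log2 fold, taken as over input, a −log10 p, which stops at 400, and the peak width in bases. Fold and p are named in the header of the CCT3 list, per the file headers, and unnamed in the PABPC1 and CCT3-2 lists, where they were read by order and range. Not given in the sources used here are the aligner, the peak caller, the handling of PCR copies and of reads that fit several places, and any pooling of samples. PCR copies without molecular identifiers are not independent molecules.

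The CCT3-2 list holds peaks down to 2.37 in log2 fold and to 1.40 in −log10 p, and its sample carries the same library name as CCT3, so it was used as a second list and not as a replicate. Rows were taken by listed gene symbol. Since that symbol often is the gene with the nearest start, peaks were also assigned by their position in RefSeq GRCm38.p6 gene spans. Distances run along the genome, introns included, from a peak's midpoint to the 3′ end of the span. The end of the listed transcript had been planned, but 40 of 45 peaks lay beyond it. Peaks within 10 bases were merged, and an overlap needed 1 base, regardless of strand.

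Depth is unknown, so no limit of detection is given. Shares have Wilson 95% intervals. With 1 library name per protein no test across samples was made. Promoter windows and their sequences are from RefSeq. All 10 genes are named, with up to 4 genes of each wider list by highest PABPC1 log2 fold and up to 4 with a CCT3 peak, and the 3 genes nearest to Hsp90b1. Hspa9, Xbp1, Ppib, Sycp3, Prm1 and Insl3 were named after their values were seen. The genes and lists were chosen with earlier results of these data known, and 1 name of the wider lists was not matched in RefSeq. Scripts ran in Python 3.11.15 with numpy 2.4.6, pandas 2.3.3, scipy 1.17.1 and matplotlib 3.10.9 and were tested on simulated data. The alternatives were a stricter threshold, assignment by position, merging, exonic peaks, other summaries, the CCT3-2 list and leaving out Hsp90b1.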

Additional observations from a re-analysis of the deposited data

How the results depend on the processing

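Over 11 results, 41 alternative values were computed, of which 22 stayed within the tolerance used and 19 did not. The tolerance was a factor of 1.5 for counts, the Wilson interval for the share, and no change at all for medians, so that a median distance of 285 in place of 286 bases counts as moved. None had a test. At a log2 fold of at least 4 and a −log10 p of at least 5, the ER genes kept 22 of 38 named PABPC1 peaks and the other genes 0 of 7. The chaperone genes with a PABPC1 peak fell from 7 to 3, and those with a CCT3 peak from 2 to 0, as did the CCT3 peaks in them (0). The 3′ UTR share was then 77.3%, the median distance to the 3′ end 190 bases, the overlap of PABPC1 with CCT3 peaks 0, and the wider lists had 30 genes with a PABPC1 peak by name in place of 47. This threshold left no peak for a median over the cytosolic and mitochondrial genes. Merging left 13 ER peaks. Without Hsp90b1, chosen after seeing the data, 16 ER peaks remained, with a 3′ UTR share of 82.6% and a median distance of 285 bases. With the CCT3-2 list held to a log2 fold and −log10 p of 3, also chosen after seeing the data, 1 gene had 1 peak. The ER median of the highest log2 fold was 6.09 by position, and with each gene's median fold it was 4.30 for ER and 3.54 for the other genes. Measured to the end of the listed transcript, the median distance was -771.5 bases, as most peaks lay beyond that end. No paired analysis was possible because each protein had 1 library name and nothing was tested. Depth is unknown and limits every count of genes without a peak.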
